A study of Mus musculus with 5480 samples.

Results

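Lipg, Gap43, Adcy8 and Edn3 are 4 of the 18072 genes counted in single mesenchymal cells of the developing mouse lung. They were chosen by their CPM in cells labelled pericyte, scarce at embryonic day 18.5 (E18.5) and plentiful after birth, so their levels in pericytes from E18.5 to P7 are given as a description, and no test of them is read as a result. CPM relates the reads of a gene to all reads of the summed library on a fixed scale. The later levels were known too when they were chosen. The series held 5480 single cells from the distal lung of 10 mice, sorted by flow cytometry, and each cell carried 1 of 16 subtype names given by the authors. The 4 groups labelled normal air were fetuses at E18.5 and pups at postnatal day 1 (P1), 7 (P7) or 21 (P21). Hyperoxia, air enriched in oxygen, was given to another group, taken at P7. Every group consisted of a female and a male. The labels give sex, age and treatment and name no strain or genotype. The mouse was the replicate (n = 2 per group), and reads were summed over the cells of a mouse that shared a label.

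Pericytes are mural cells that wrap capillaries, share the basement membrane with the endothelium and are related to the smooth muscle of larger vessels. Edn3 encodes endothelin-3, a secreted peptide cut from a longer precursor by endothelin-converting enzymes, which binds the receptor EDNRB with high affinity and EDNRA with low affinity. Lipg encodes endothelial lipase, a secreted phospholipase of the lipoprotein lipase family that was named for its expression in endothelium and acts mainly on high-density lipoprotein. Adcy8 encodes a membrane-bound adenylyl cyclase that makes cyclic AMP and is stimulated by calcium and calmodulin. Gap43 encodes a membrane-attached protein of neuronal growth cones that binds calmodulin and is a substrate of protein kinase C.

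Of the genes considered here, RefSeq's table of promoters gave Edn3, whose start lies on the plus strand of chromosome 2. The 250 bases before the start (GRCm38.p6, chr2:174760369-174760618) are shown because Edn3 is the secreted ligand of the group. Capitals mark the matches to the E-box letters CANNTG.
Edn3 promoter: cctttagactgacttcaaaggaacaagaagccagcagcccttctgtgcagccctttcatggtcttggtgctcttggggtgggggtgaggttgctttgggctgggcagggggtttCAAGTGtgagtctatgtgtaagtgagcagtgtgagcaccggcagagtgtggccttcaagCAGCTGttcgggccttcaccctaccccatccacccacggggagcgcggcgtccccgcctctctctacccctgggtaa
The 2 E-box matches, CAAGTG and CAGCTG, lie upstream of the start, the second beginning 77 bases before it, and 66.2% of the 32851 promoters in the table hold such a match in the same window. Searched on both strands, the window held no TATAAA (in 12.4% of promoters), no CCAAT (33.8%), no GGGCGG (32.7%), no TGANTCA (6.75%) and no TGACG (17.8%). GC made up 59.2% of the bases, against a median of 52.4% over all promoters. These are matches of letters and not measured binding sites.

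The pericyte label was checked against 15 marker genes. Their summed level in pericytes was between 14432 and 22834 CPM in the 10 mice. In a comparison of group means over the labelled subtypes, 13 of the 15 were highest in pericytes at E18.5, 11 at P1, 12 at P7, 11 at P21 and 13 in hyperoxia. Among the exceptions at P21 were Rgs5, at 55.4 CPM in pericytes and 611.8 CPM in vascular smooth muscle, and Kcnj8, at 55.5 CPM in pericytes and 401.7 CPM in airway smooth muscle. The label covered 5.13% of all cells, and 19 further cells labelled proliferating pericyte were kept apart. Of the females, the E18.5 mouse gave 14 pericytes, the P1 mouse 23, the P7 mouse 26, the P21 mouse 70 and the hyperoxia mouse 5. The males gave 14, 20, 31, 75 and 3. The median pericyte of a mouse held between 420870 and 812996 reads. Both hyperoxia mice therefore rest on very few pericytes, and in these the median number of detected genes was 4000 and 4941, above the 1886 to 3744 of the 8 mice in normal air.

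Markers of other cell types were measured in the same pericytes. Endothelial markers are of interest because Lipg is also an endothelial gene. The 12 of them summed to 209.2 to 463.97 CPM, mostly Esam and Ramp2, while Cdh5 was at 0.426 CPM or less in all 10 mice and Pecam1 at 26.5 CPM or less. A read of Pecam1, Cdh5 or Emcn was held by 14.7% of the P21 pericytes with a Lipg read (19 cells), and 0 of the 16 without one did. At P1 such a read was held by 5 of 31 cells with a Lipg read and 0 of 12 without. At P7 the numbers were 3 of 25 with and 7 of 32 without. At E18.5 they were 2 of 5 and 4 of 23, and in hyperoxia 0 of 6 and 0 of 2. Of the 10 immune markers, the sum was 0 in both hyperoxia mice and reached 127.1 CPM in the male P21 mouse. The 10 epithelial markers summed to 0 in the male and 370.6 CPM in the female hyperoxia mouse, mostly Ager (267.6 CPM), and to at most 87.7 CPM elsewhere. The 9 Schwann and neuronal markers, which bear on Gap43, summed to between 0 and 67.9 CPM, and Sox10 among them was at 0.0164 CPM or less. The 10 smooth muscle markers summed to 3454 to 6175 CPM at P7 and to 1040.1 to 1366 CPM at P21. Among them Acta2 was at 4694 and 1894 CPM at P7 and at 94.3 and 119.96 CPM at P21. The part of these markers in the results was not tested.

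The mice had been sequenced in separate runs. A single run held nearly all cells of the 4 males of the normal air groups. The male pericytes came from that 1 run at E18.5, P1 and P7, and from 2 runs at P21. The values of the males are thus mostly values within a run. Another run was common to the females of E18.5 and P1, and nearly all cells of the female P7 mouse, the female P21 mouse and each hyperoxia mouse came from a run of their own. Hyperoxia and run cannot be told apart. Of the pericytes, 4 came from a CD31 sort, CD31 being an endothelial surface marker, and the others from the mesenchymal sort.

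Edn3, the ligand, was close to absent in pericytes at E18.5, with 0.0792 CPM in the female (1 read) and 0 in the male. It was at 39.3 and 23.0 CPM at P1, at 105.01 and 142.5 CPM at P7 and at 361.9 and 383.6 CPM at P21. The levels of the 4 ages in normal air did not overlap, and both mice of a later age lay above both mice of the age before. Between P7 and P21 this order was found for 23.7% of all genes tested, and for the earlier steps that share was not counted. The P1 level came from few cells: a read was found in 6 of 23 and 3 of 20 pericytes, and in the male 1 cell held 99.2% of the reads, without which its level was 0.193 CPM. At P21 a read was found in 46 of 70 pericytes of the female (65.7%, 95% Wilson interval 54.0% to 75.8%) and in 34 of 75 of the male (45.3%, 34.6% to 56.6%). Edn3 was thus found in fewer of the P21 pericytes of both mice than each of the other 3 genes. It also differed between the 2 plates of a mouse at P21, with 521.8 and 227.3 CPM in the female and 203.5 and 540.7 CPM in the male.

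Lipg, the secreted lipase, was high, low and high again. Its level in pericytes was 2.85 and 7.33 CPM at E18.5, 328.1 and 325.5 CPM at P1, 21.1 and 15.7 CPM at P7, and 658.5 and 596.9 CPM at P21. From P1 on, the female and male mouse of a group lay close together in summed level. The 2 plates of a mouse differed more at P1, with 217.6 and 555.6 CPM in the female and 511.3 and 113.4 CPM in the male. The share of pericytes with a read followed the same order, with 2 of 14 and 3 of 14 cells at E18.5, 15 of 23 and 16 of 20 at P1, 11 of 26 and 14 of 31 at P7, and 63 of 70 and 66 of 75 at P21. Among pericytes with a read, the median was 173.03 and 123.8 CPM at P1, 35.9 and 22.6 CPM at P7, and 591.3 and 538.8 CPM at P21. At P1 the strongest cell held 27.9% of the female's and 56.7% of the male's reads, and without it the levels were 253.7 and 160.6 CPM, still above P7.

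Adcy8, the calcium-stimulated cyclase, had 0 reads in the female and 1 read in the male at E18.5. It was at 64.3 and 108.03 CPM at P1, at 70.3 and 46.0 CPM at P7 and at 608.9 and 529.1 CPM at P21. The P1 and P7 mice overlapped, and both P21 mice lay far above them. A read was found in 13 of 23 and 10 of 20 pericytes at P1, in 10 of 26 and 14 of 31 at P7, and in 62 of 70 and 51 of 75 at P21. The 2 plates of the male P21 mouse were at 297.1 and 731.5 CPM. The P1 level depended on how cells were averaged, since the mean over cells of each cell's own CPM was 177.8 in the female and 88.2 in the male.

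Gap43 had 0 reads in the 28 pericytes at E18.5, which allows a share of up to 21.4% of the cells of each mouse. It was at 235.5 and 59.5 CPM at P1, at 556.1 and 853.4 CPM at P7 and at 449.5 and 1163.9 CPM at P21. The P7 and P21 mice overlapped, and both P7 mice lay above both P1 mice. The share of all genes with such an order between P1 and P7 was not counted. Without the strongest cell of each mouse the mean Gap43 level was 66.9 CPM at P1, against 147.5 CPM with it, and 615.6 CPM at P7. A read was found in 9 of 23 and 5 of 20 pericytes at P1, in 15 of 26 and 24 of 31 at P7, and in 57 of 70 and 61 of 75 at P21. This share was nearly equal in both P21 mice (81.4% and 81.3%) although the summed level was higher in the male.

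**Figure D1:**
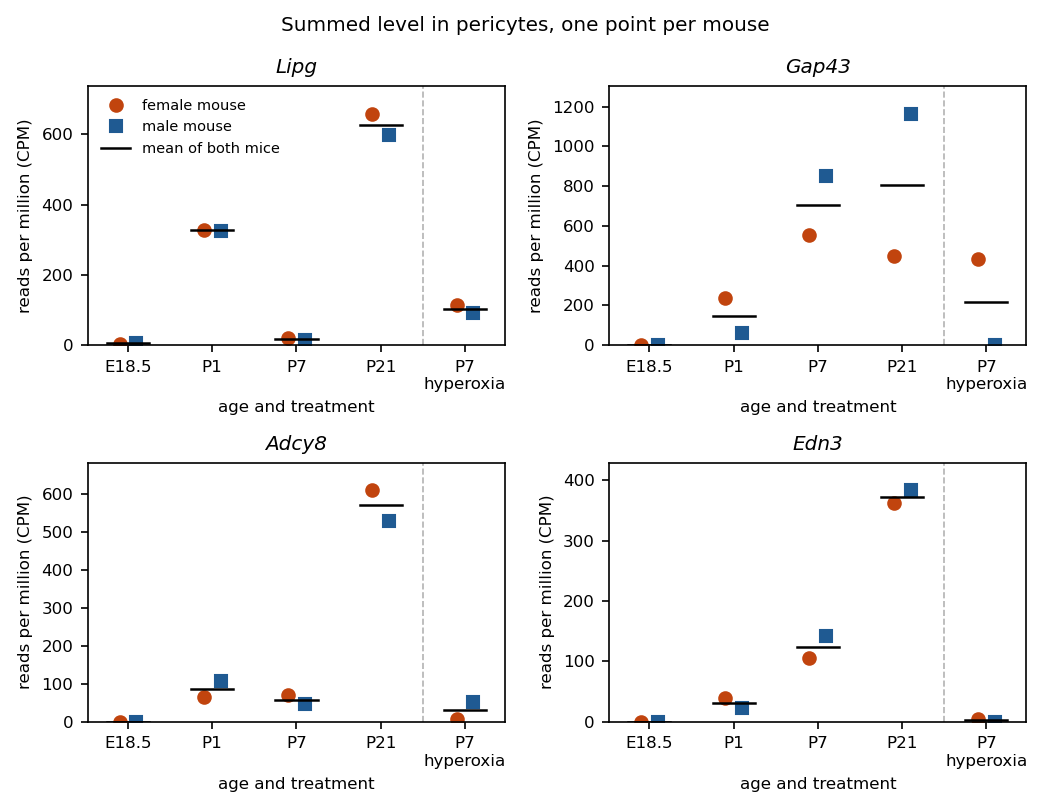
Summed level in pericytes (y axis, CPM) by age and treatment (x axis) for Lipg, Gap43, Adcy8 and Edn3, each with its own linear scale. Points are single mice (circle female, square male) and bars the mean of both mice. Lipg is high at P1 and P21 and low at P7, Gap43 is already high at P7, and Adcy8 and Edn3 are highest at P21.

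The genes were chosen for their rise in pericytes after E18.5. A contrast of P1 against E18.5 in pericytes therefore retraces the choice, and what follows is no result. The limit used here was an adjusted p of 0.05 in edgeR. The limit was met by 5 of 11894 genes (0.042%). These were the 4 genes described here and Tppp3, a tubulin-binding protein, with the smallest log2 difference of the 5 (4.63). Tppp3 was at 37.3 and 24.1 CPM at E18.5, 501.5 and 979.5 CPM at P1, 434.8 and 225.2 CPM at P7, and 1008.6 and 817.4 CPM at P21. The gene nearest outside that limit was C1qtnf2 (log2 difference 7.68), at 0 and 1.19 CPM at E18.5, 54.3 and 138.99 CPM at P1, 181.9 and 335.2 CPM at P7, and 198.9 and 370.97 CPM at P21. The log2 differences of the 4 genes in this contrast were 6.00 for Lipg, 14.91 for Gap43, 10.72 for Adcy8 and 9.35 for Edn3. The log2 differences of Gap43, Adcy8 and Edn3 depend on the fit's treatment of 0 or 1 read at E18.5 and are no measure of size.

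Individual pericytes held the genes in different combinations. At E18.5, 22 of 28 cells held no read of any of the 4 genes, 5 held reads of 1 and 1 held reads of 2. At P1, 3 of 43 cells held none and 3 held all 4, 15 held reads of 1 and 16 held reads of 2. At P7, 6 of 57 cells held none and 4 held all 4. At P21, 2 of 70 cells of the female and 1 of 75 of the male held none, while 38 and 27 held all 4. The pairs found together most often at P21 were Lipg and Gap43, in 54 cells of the female and 55 of the male, and Lipg and Adcy8, in 58 and 47. At P1, Lipg and Adcy8 were found together in 18 of 43 cells and Lipg and Gap43 in 8. At P7, Lipg and Gap43 were found together in 18 of 57. These shares depend on depth. After every pericyte with at least 100000 reads had been thinned to that number, which left out 6 cells, the share with a Lipg read in the female and male was 56.5% and 70% at P1, 32% and 43.3% at P7, and 91.3% and 86.1% at P21.

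**Figure D2:**
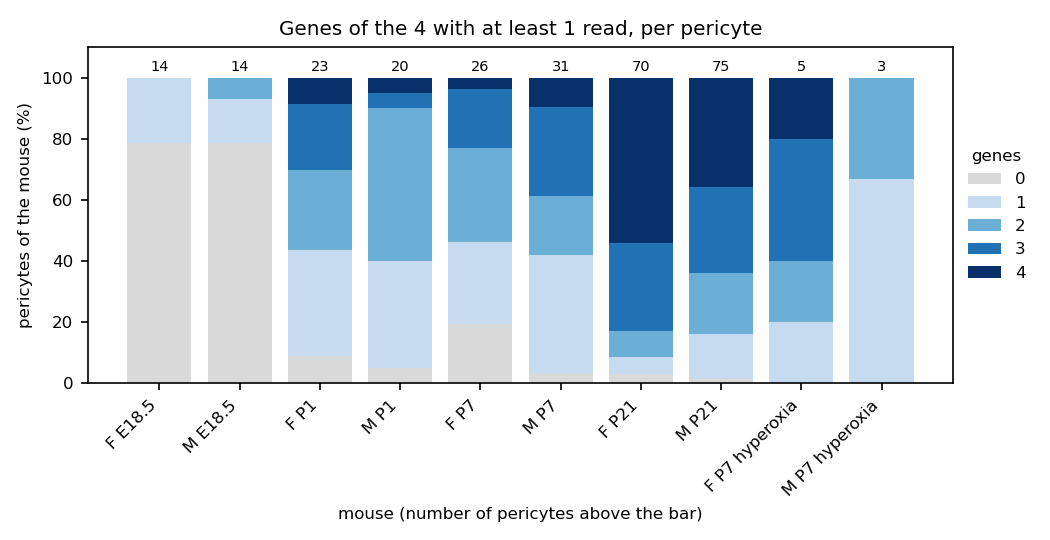
Share of the pericytes of each mouse (y axis, percent) that held a read of 0, 1, 2, 3 or 4 of the genes, by mouse (x axis, F female and M male), with the number of pericytes above each bar. Cells with none made up 11 of 14 in both E18.5 mice, and cells with all 4 made up 38 of 70 and 27 of 75 at P21.

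**Figure D3:**
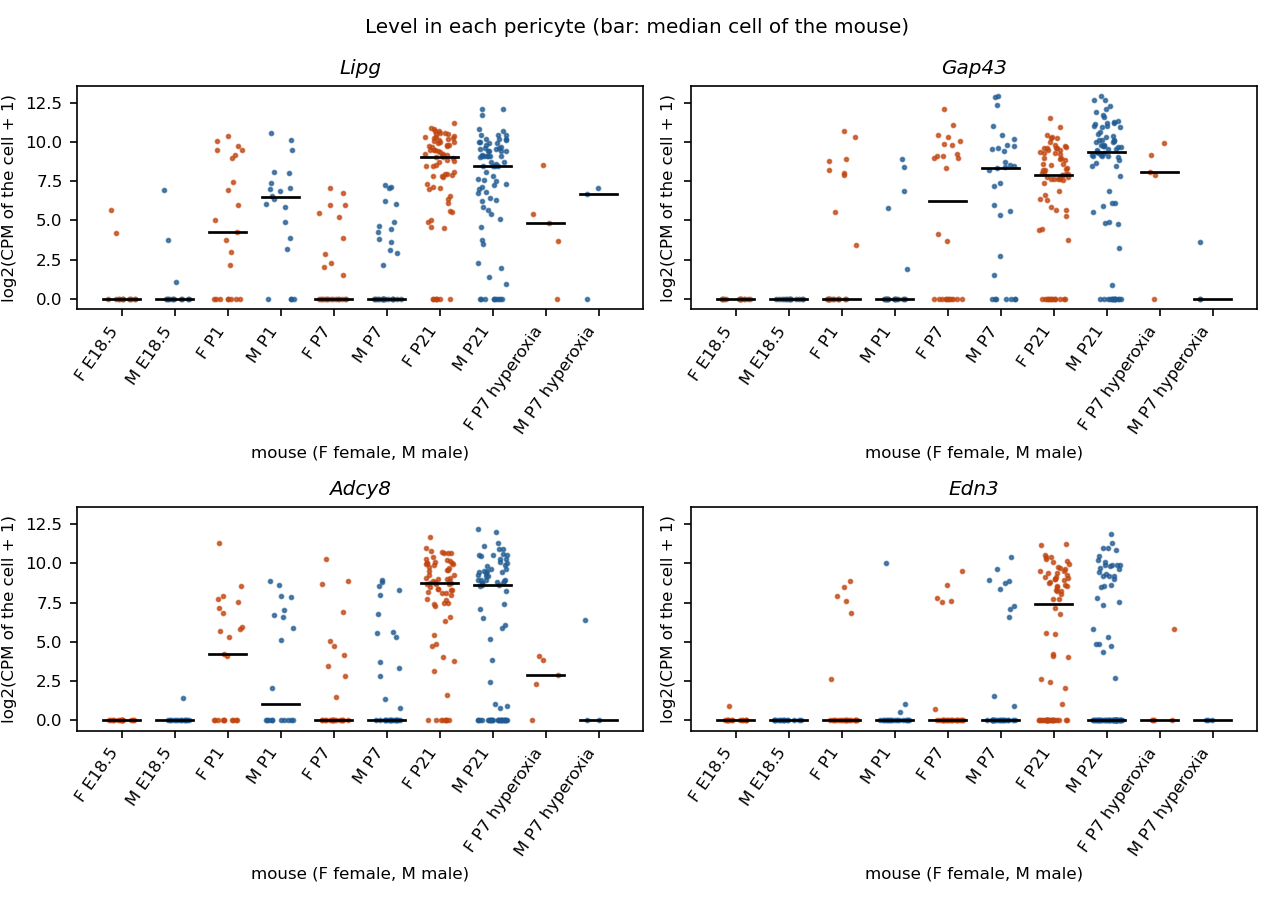
Level in each pericyte (y axis, log2 of the cell's CPM plus 1) by mouse (x axis, F female and M male), with a bar at the median cell of the mouse. At P21 the median cell lies above 0 for Lipg, Gap43 and Adcy8 in both mice and for Edn3 in the female alone, and for Lipg the cells at P7 lie lower than those at P1 and P21.

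Pericytes at P21 and P7 were compared in a fit of the 8 mice in normal air. The contrast itself takes no E18.5 level, but the E18.5 mice shared in the filter and in the estimate of the spread. The P7 and P21 levels were known when the genes were chosen, so the comparison is not independent of that choice. Of 11894 genes tested, 6 passed an adjusted p of 0.05 (0.0504%), and Lipg was among them. Lipg rose from 18.4 ± 3.82 to 627.7 ± 43.6 CPM (SD, n = 2), a log2 difference of 5.10 (SE 0.763, edgeR adjusted p 0.0423), and was higher in both sexes. This call lay near the limit: it was lost with RLE scaling (adjusted p 0.0587), with the 4 compared mice alone (0.0578) and when any 1 of these 4 mice was left out (0.0707 without the female P7 mouse, 0.118 without the male P7 mouse, 0.778 without the female P21 mouse and 0.301 without the male P21 mouse). The log2 difference in those 4 fits ran from 4.67 to 5.65. Without the 4 CD31-sorted pericytes the adjusted p was 0.0442.

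Adcy8 was at 58.1 ± 17.2 CPM at P7 and 569.02 ± 56.4 CPM at P21, a log2 difference of 3.30 (SE 0.786) with an edgeR adjusted p of 0.507, which did not pass. It passed with DESeq2 (adjusted p 0.00114), as did 3.74% of all genes, and without the filter on low counts (0.0347). Edn3 was at 123.8 ± 26.5 and 372.8 ± 15.3 CPM (log2 1.63, SE 0.778, edgeR adjusted p 0.955). Gap43 was at 704.8 ± 210.2 and 806.7 ± 505.2 CPM (log2 0.26, SE 0.743, edgeR adjusted p 1), and its sign turned without the female P7 mouse or without the male P21 mouse. Both P21 mice lay above both P7 mice for Lipg, Adcy8 and Edn3, as they did for 23.7% of all genes tested.

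The P7 pericytes of hyperoxia, only 5 and 3 cells, were then set against the same P7 mice in normal air as above. No gene passed among 11984 tested (0%), while 6.77% had an unadjusted p under 0.05 in edgeR and DESeq2 called 6.84%. Edn3 was at 4.61 CPM (14 reads, all from 1 of 5 cells) and 0 CPM (0 of 3 cells) in hyperoxia, against 105.01 and 142.5 CPM in normal air. The hyperoxia mice were both lower, as for 22% of genes tested, and the log2 difference was -6.46 (SE 1.46, edgeR adjusted p 0.273). Edn3 passed with DESeq2 (adjusted p 2.2e-05) and without the filter on low counts (0.00376). A read was found in 6 of 26 and 11 of 31 P7 pericytes in normal air, so groups of 5 and 3 cells could miss it. A count of 0 in 3 cells sets only a loose upper limit on the share of cells with a read.

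Lipg was at 114.2 and 91.5 CPM in the hyperoxia pericytes and at 21.1 and 15.7 CPM in normal air. Both hyperoxia mice were higher, as for 12.5% of genes, and the log2 difference of 2.12 (SE 0.734) had an edgeR adjusted p of 0.601, against 0.0259 with DESeq2. In hyperoxia 1 cell held 81.0% of the female's Lipg reads and another 71.4% of the male's. Gap43 was at 432.1 CPM in the female and 1.84 CPM (4 reads) in the male. Both were below normal air, as for 22% of genes tested (log2 -2.80, SE 1.58, edgeR adjusted p 0.718). Adcy8 was at 7.90 and 52.4 CPM against 70.3 and 46.0 CPM (log2 -1.68, SE 0.993, edgeR adjusted p 0.718). The hyperoxia mice overlapped with normal air for Adcy8, and the male's reads came from 1 cell.

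Most reads of the 4 genes came from pericytes, which made up 5.13% of the 5480 cells. Pericytes held 88.4% of the Adcy8 reads, 83.1% of the Lipg reads, 73.6% of the Gap43 reads and 52.3% of the Edn3 reads. A read was found in 59.1%, 69.8%, 62.6% and 38.4% of all pericytes. The subtypes are clusters of these same cells, so differences between them are described and not tested. In libraries of at least 10 cells, pericytes had the highest mean level of all 4 genes at P1, P7 and P21. Some smaller libraries had higher means. At P1 these were proliferating myofibroblasts for Gap43 (340.3 against 147.5 CPM in pericytes, 5 of 7 cells with a read). Proliferating fibroblasts at P1 were higher for Edn3 (36.1 against 31.1 CPM, 2 of 12 cells with a read). Proliferating pericytes at P7 were higher for Lipg (50.2 against 18.4 CPM) and Adcy8 (104.3 against 58.1 CPM). At E18.5, among libraries of at least 10 cells, pericytes were highest for Lipg alone. Vascular smooth muscle was left out there for its few cells (16 in both mice together). Its mean Lipg level was 9.51 CPM, from 1 cell with a read, against 5.09 CPM in pericytes. Among the same libraries at E18.5, precursors of myofibroblasts and smooth muscle were highest for Edn3 (8.84 and 6.15 CPM) and Gap43 (0.0465 and 7.35 CPM). Fibroblast precursors were highest for Adcy8 (0.189 and 0.0742 CPM). Smaller libraries at E18.5 had higher means for Edn3 and Gap43, each from 1 cell with a read. For Edn3 these were proliferating pericytes (14.9 CPM, against 7.49 CPM in the precursors of myofibroblasts and smooth muscle). For Gap43 they were proliferating myofibroblasts (8.75 CPM, against 3.70 CPM in those precursors).

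Proliferating pericytes, with 5 cells in each P7 mouse, held 3 of the 4 genes at that age. Their levels were 73.7 and 26.7 CPM for Lipg, 45.7 and 363.9 CPM for Gap43 and 101.2 and 107.4 CPM for Adcy8, with 2 of the 5 cells of each mouse holding an Adcy8 read. Edn3 had 0 reads in them at P7 in normal air. At E18.5, 1 of the 6 proliferating pericytes held Edn3 reads, and the mean of both mice was 14.9 CPM. In hyperoxia 1 of the 3 proliferating pericytes did, with a mean of 18.8 CPM, against 2.30 CPM in hyperoxia pericytes. Both means thus rest on 1 cell. Outside both pericyte labels, Adcy8 was low. In no other subtype with at least 10 cells per mouse did a mouse exceed 9.99 CPM, reached by early adventitial fibroblasts at P7. Early alveolar fibroblasts held a read of Adcy8 in 62 of 1618 cells. Lipg had its next highest level in vascular smooth muscle, at 85.7 and 82.6 CPM at P21, with reads in 8 of 33 and 6 of 19 cells, and 1 cell held 82.3% of the male's reads. Alveolar fibroblasts followed with 7.40 and 35.3 CPM, where 1 cell of the male held 82.6% of the reads.

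Gap43 was shared with myofibroblasts, the contractile cells that deposit elastin in growing alveoli. At P1 these were at 134.6 and 146.6 CPM, a range inside that of pericytes (59.5 to 235.5 CPM), and 14 of 39 and 5 of 32 cells held a read, with 51.8% and 86.2% of the reads in 1 cell of each mouse. At P7 myofibroblasts were at 24.7 and 54.0 CPM, below both pericyte values, and in hyperoxia at 70.6 and 59.0 CPM. Both P7 mice lay below both P1 mice, as for 14.3% of genes tested in myofibroblasts. Without the strongest cell of each mouse the levels overlapped, at 66.5 and 22.1 CPM at P1 and 21.7 and 41.9 CPM at P7. Whether this step differed from that in pericytes was not tested. The myofibroblast difference (log2 -1.95, SE 0.465) had an edgeR adjusted p of 0.532 and did not pass, and it ran from -2.53 to -1.44 when single mice were left out. DESeq2 called it (adjusted p 0.00348).

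Edn3 had the smallest share of its reads in pericytes of the 4 genes. At P21 vascular smooth muscle was at 117.04 and 78.9 CPM (5 of 33 and 3 of 19 cells with a read), adventitial fibroblasts at 31.8 and 38.5 CPM and alveolar fibroblasts at 13.7 and 9.60 CPM. At P7 proliferating myofibroblasts were at 74.8 and 14.7 CPM and myofibroblasts at 14.9 and 41.8 CPM. The female and male values of vascular smooth muscle at P7, 0 and 53.8 CPM, came from 27 cells without a read and from 1 of 31 cells.

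**Figure D4:**
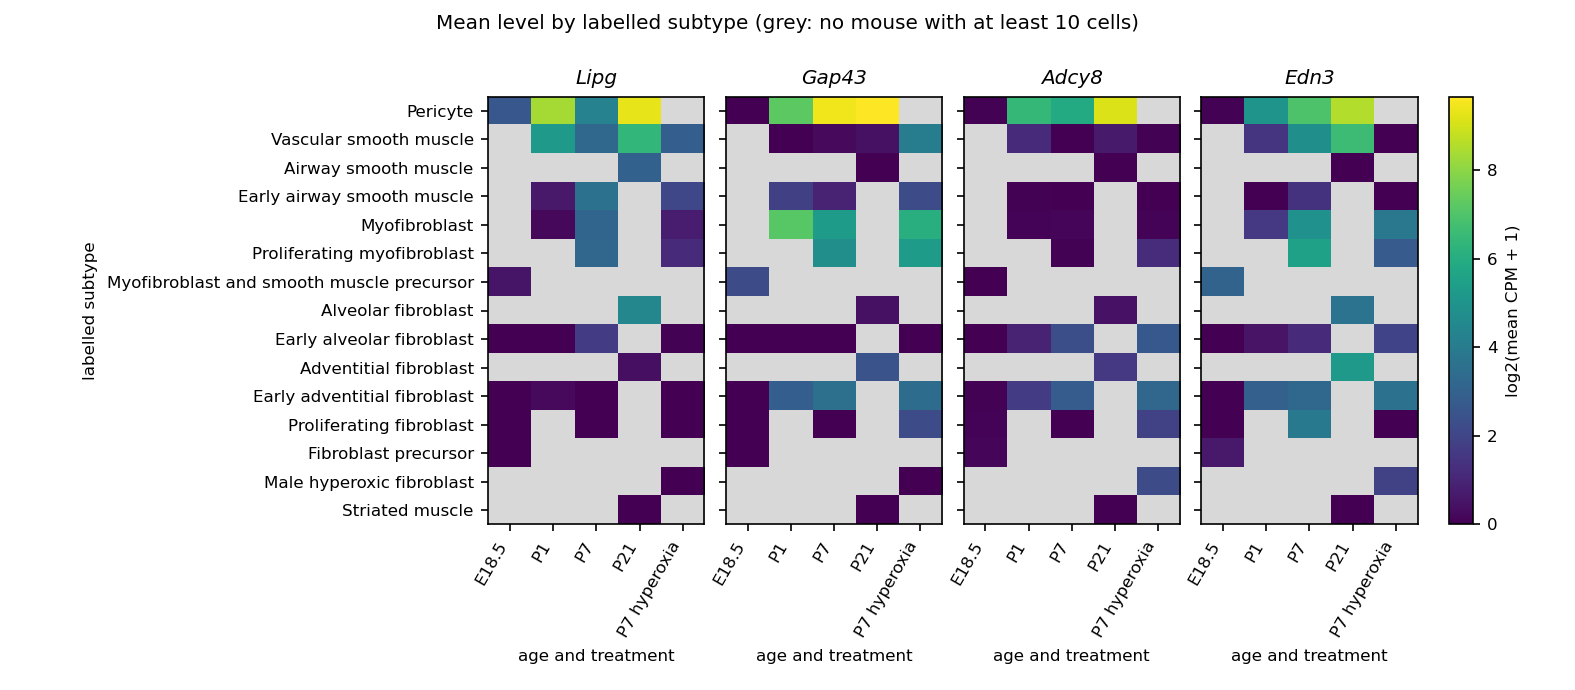
Mean level over the mice of a group (colour, log2 of the mean CPM plus 1) by labelled subtype (rows) and by age and treatment (columns), for each gene. Grey marks combinations without a mouse of at least 10 cells, among them the hyperoxia pericytes. The pericyte row is brightest from P1 on, with further signal for Lipg in vascular smooth muscle, for Gap43 in myofibroblasts and for Edn3 in several rows.

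Vascular smooth muscle, the neighbouring mural class, was tested in the same way. Between E18.5 and P1, 17 of 12493 genes passed (0.136%) and none was one of the 3 genes tested here. Lipg was at 0 and 19.0 CPM at E18.5 and 0 and 72.5 CPM at P1, and Gap43 had 0 reads at both ages and was not tested. Between P7 and P21, 11 of 12417 genes passed (0.0886%), again none of the 4. Lipg was at 0.189 and 17.0 CPM at P7 and 85.7 and 82.6 CPM at P21 (log2 5.77, SE 3.13, edgeR adjusted p 0.740), and DESeq2 called it (adjusted p 0.0339), as it did 6.78% of all genes. Edn3 was at 0 and 53.8 CPM at P7 and 117.04 and 78.9 CPM at P21 (log2 7.60, SE 3.83, edgeR adjusted p 0.721). In hyperoxia against normal air, 0 of 12417 genes passed (0%), 2.57% had an unadjusted p under 0.05 and DESeq2 called 1.73%. Edn3 had 0 reads in vascular smooth muscle of both hyperoxia mice (22 and 22 cells).

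Whether the step from P7 to P21 differed between pericytes and vascular smooth muscle was tested as an interaction in the 4 mice. Of 12522 genes 1 passed (0.00799%), and it was not one of the 4. The difference of the 2 log2 changes, pericyte minus vascular smooth muscle, was -0.19 for Lipg (SE 2.34), -0.84 for Gap43 (SE 2.30), -0.36 for Adcy8 (SE 1.53) and -3.86 for Edn3 (SE 3.99), each with an edgeR adjusted p of 1. These errors are so wide that large differences between the classes were not detectable.

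In alveolar fibroblasts, adventitial fibroblasts and airway smooth muscle, in myofibroblasts, and in vascular smooth muscle from P1 to P7, 44 comparisons of the 4 genes could be tested between neighbouring ages or between hyperoxia and normal air. The 2 fibroblast classes and airway smooth muscle join the labels with and without the word early. Nearly all their cells carried the early labels up to P7 and the labels without it at P21, so the step from P7 to P21 compares different clusters. None of the 44 passed in edgeR, and 5 had an unadjusted p under 0.05. These were Gap43, Adcy8 and Edn3 in adventitial fibroblasts between E18.5 and P1, where 9.23% of all genes did, and Lipg and Gap43 in myofibroblasts between P1 and P7, where 8.01% did. DESeq2 called 6 of the 44. These were Edn3, Gap43 and Lipg in myofibroblasts from P1 to P7 (5.15% of all genes), Edn3 and Gap43 in adventitial fibroblasts from E18.5 to P1 (5.09%), and Edn3 in alveolar fibroblasts from P7 to P21 (6.83%). The share of all genes that passed in edgeR was uneven. In alveolar fibroblasts it was 6.16% of 15670 genes between E18.5 and P1, 0% between P1 and P7, 0.0702% between P7 and P21 and 0% in hyperoxia. In adventitial fibroblasts it was 0.17%, 0%, 0.124% and 0% in the same order, and in airway smooth muscle 0%, 1.13% and 0% from P1 on. It was 0% in both myofibroblast comparisons and in vascular smooth muscle between P1 and P7. Between E18.5 and P1 in alveolar fibroblasts, with the highest share, Adcy8 was at 0 and 0.889 CPM on average (edgeR adjusted p 0.243).

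The partners of each gene were followed in 4 lists. Beside the 4 genes themselves, 0 of the 51 list genes tested in pericytes between P7 and P21 passed in edgeR in either direction, and 0 of 52 between normal air and hyperoxia. The endothelin list had 4 genes tested besides Edn3, with a median log2 difference of 0.92, against 0.20 over all 11894 genes. Among them Ednrb and Mme were at 0.556 CPM or less in the P7 and P21 mice, so this median is no measure of size. Ednra, the low-affinity receptor for endothelin-3, was abundant in pericytes throughout, at 1383 and 2760 CPM at E18.5 and 2393 and 1238 CPM at P21. Ednrb, the high-affinity receptor, was at 5.07 and 15.3 CPM in pericytes at E18.5 and at 0.0196 CPM or less in the 8 postnatal mice. Ednrb was higher in other mural and muscle cells: at P21 vascular smooth muscle was at 135.8 to 276.97 CPM and airway smooth muscle at 424.6 to 826.5 CPM. The highest Ednrb level in a library of at least 10 cells was in precursors of myofibroblasts and smooth muscle at E18.5 (3978 to 5165 CPM). At E18.5 these precursors also had the highest Edn3 level among libraries of at least 10 cells. Ece1, an endothelin-converting enzyme, was at 1.58 and 0 CPM in E18.5 pericytes, 9.36 and 48.0 CPM at P7 and 41.8 and 47.5 CPM at P21.

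Of the lipase list, 13 genes were tested besides Lipg, with a median log2 difference of 0.62 between P7 and P21. Lpl, lipoprotein lipase itself, had 0 reads in P1 and P7 pericytes and was at 106.1 and 1.55 CPM at P21. Angptl4, a secreted inhibitor of these lipases, was at 0 and 9.41 CPM at E18.5, 104.8 and 146.7 CPM at P1, 79.2 and 115.6 CPM at P7, 116.9 and 164.9 CPM at P21, and 306.4 and 270.9 CPM in hyperoxia. In vascular smooth muscle, Angptl4 was the only gene of the 4 lists to pass when that class was compared between E18.5 and P1, P7 and P21, or hyperoxia and normal air: it had 0 reads at E18.5 and was at 136.4 and 328.4 CPM at P1 (edgeR adjusted p 0.0104). Pcsk5, a proprotein convertase that cuts endothelial lipase, was at 0.0792 and 50.8 CPM at E18.5, 0.0498 and 0.191 CPM at P7 and 60.7 and 68.9 CPM at P21.

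Of the cyclase and cyclic AMP list, 23 genes were tested besides Adcy8, with a median log2 difference of 0.36. Of the other cyclases, Adcy2 was at 149.8 and 322.1 CPM at E18.5, 71.8 and 41.1 CPM at P7 and 163.7 and 216.3 CPM at P21. Of the other cyclases stimulated by calcium and calmodulin, Adcy1 was at 0.0629 CPM or less in all 10 mice. Adcy3 was at 74.8 and 56.2 CPM at E18.5, 37.9 and 2.52 CPM at P7 and 146.7 and 54.4 CPM at P21. The phosphodiesterase Pde3a, which breaks down cyclic AMP, was at 87.2 and 45.1 CPM at E18.5 and 314.7 and 290.3 CPM at P21. Of the growth cone list, 11 genes were tested besides Gap43, with a median of -0.47. Marcks, another substrate of protein kinase C, was at 387.1 and 351.6 CPM at E18.5 and 855.9 and 1280.3 CPM at P21. The neuronal genes Stmn2 and Tubb3 were at 0.294 CPM or less in all 10 mice.

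The genes whose pattern was most like that of each gene were ranked by Pearson's r of log2(CPM + 1) over 64 libraries of 1 mouse and 1 subtype, against 14018 other genes. These libraries share mice, runs and clusters, so r is a description. For Lipg they were Vtn (r 0.81), Spaar (0.79), Adap2os (0.78), Adap2 (0.75) and Ttll7 (0.74). Vtn, which encodes vitronectin, was at 54.3 and 55.0 CPM in E18.5 pericytes, 85.5 and 288.8 CPM at P7 and 643.5 and 687.3 CPM at P21. For Adcy8 they were 9230104L09Rik (0.81), Dennd1c (0.81), Pilrb1 (0.79), Chst5 (0.79) and 9930111J21Rik1 (0.77). The first of these had 0 reads in E18.5 pericytes and was at 938.5 and 2105 CPM at P21. For Gap43 they were Sgip1 (0.68), Bmp2 (0.66), Fli1 (0.66), Ttyh2 (0.66) and Card9 (0.65), of which Bmp2, Fli1, Ttyh2 and Card9 had their highest level outside pericytes in a myofibroblast library. For Edn3 they were Tmem200a (0.65), App (0.62), Ifi47 (0.61), Lipg (0.60) and Vtn (0.59). Among the 4 genes r ran from 0.44 for Lipg and Gap43 to 0.62 for Gap43 and Adcy8, and Lipg was the only one of the 4 to enter another's first 5.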

How the data were processed

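Libraries were made in plates with Tn5 transposase from single sorted cells, per the labels. The authors deposited read counts per gene and cell, without molecular identifiers named, so copied reads count separately. Per the submitters' processing notes, STAR 2.5.2b and HTSeq 0.10 were used with GRCh38, a human build, although the cells are mouse; no coordinates were taken from the counts for that reason, and the counting settings are not given in the sources used here. Single cells held 39358 to 5177020 reads (median 774305). Cell names are the authors' subtypes, and no doublet caller was run.

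Counts were summed per mouse and class and tested with edgeR 4.0.16 (TMM, filterByExpr by group, quasi-likelihood test, two-sided, terms for group and sex, Benjamini-Hochberg over all genes tested, threshold 0.05). A mouse needed 10 cells of the class, 3 for pericytes in hyperoxia and 5 for vascular smooth muscle between E18.5 and P1. The interaction had the mouse as a block. Summed levels are CPM of the library total. Wilson intervals (95%) and limits from 3 counts cover counting error only. The labels do not say how the mice were bred or kept, and p-values measure the spread between these mice. Alternatives used DESeq2 1.42.0 in R 4.3.3, RLE scaling, no filter, other cell minimums, other cell sets and the fits without each mouse. Steps were tested on simulated counts.

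The 4 genes and the lists were chosen with earlier results of these data known. Named were the 4 genes, genes of the 4 pathway lists past the threshold or with at least 10 CPM in a group of pericytes, and for each gene the 5 genes with the most similar pattern among those with at least 10 CPM in 1 library.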

Additional observations from a re-analysis of the deposited data

Results flagged for a closer look

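In 3 steps the female and the male pericytes moved in opposite directions, each on 1 mouse per sex and age, and the difference was not tested. Values are log2 ratios of CPM + 1. Gap43 between P7 and P21 was at -0.31 in the female and 0.45 in the male. Adcy8 between P1 and P7 was at 0.13 in the female and -1.21 in the male, whose P1 and P7 mice shared a run. Adcy8 between P7 in normal air and hyperoxia was at -3.00 in the female and 0.19 in the male, with 5 and 3 hyperoxia pericytes and the male's reads in 1 cell.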

How the results depend on the processing

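Shares of genes past the threshold depended strongly on the tool and the filter, and the cause was not tested. With DESeq2, 3.74% of genes tested passed for pericytes between P7 and P21 (0.0504% in edgeR) and 6.84% for pericytes in hyperoxia (0%). For vascular smooth muscle the shares were 6.99% between E18.5 and P1 (0.136%), 6.78% between P7 and P21 (0.0886%) and 1.73% in hyperoxia (0%). They were 3.72% for the interaction (0.00799%), and DESeq2 called 6 of the 44 tests of the 4 genes in other classes (0). Without the filter on low counts the shares were 0.256%, 0.41%, 0.206% and 0.238% for the first 4 of these comparisons and 0.0942% for the interaction. Pericytes between P7 and P21 gave 0.0266% with the 4 compared mice alone and 0.197% with proliferating pericytes added. Pericytes in hyperoxia gave 0.0225% with a minimum of 5 cells. The interaction gave 0.0319% with RLE scaling.

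The sex of the mouse served as the replicate block. Without it pericytes between P7 and P21 again gave 0.0504%, with Lipg at an adjusted p of 0.0288 in edgeR, and the difference of Lipg in vascular smooth muscle in hyperoxia turned from 2.03 to -0.76. With sex and age in place of the mouse block, the interaction gave 0.024%, and that of Lipg turned from -0.19 to 1.36.

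Leaving out 1 mouse at a time gave 0% to 0.136% for pericytes between P7 and P21, 0% to 0.0676% for pericytes in hyperoxia, 0.0436% to 0.275%, 0.0295% to 0.147% and 0% to 0.00736% for the vascular smooth muscle comparisons in the order above, and 0% to 0.0592% for the interaction. The log2 difference of Gap43 in pericytes between P7 and P21 ran from -1.14 to 1.10. In vascular smooth muscle between E18.5 and P1, Lipg ran from -7.13 to 8.69, Adcy8 from -0.000928 to 8.27 and Edn3 from -1.79 to 1.94. Between P7 and P21, Gap43 ran from -0.0304 to 1.11 and Adcy8 from -3.46 to 9.27. In hyperoxia, Lipg ran from -2.13 to 5.05 and Adcy8 from -0.427 to 0.658. In the interaction, Lipg ran from -4.05 to 3.17, Gap43 from -6.17 to 5.77, Adcy8 from -3.32 to 5.74 and Edn3 from -12.83 to 0.71. DESeq2 and the fit without sex in other classes, the fits of Gap43 in myofibroblasts without each mouse and the levels without the strongest cell were chosen after seeing the data. The 5 and 3 hyperoxia pericytes and the 7 and 9 vascular smooth muscle cells at E18.5 are the smallest cell numbers behind these comparisons.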
